A study of Mus musculus with 27 samples.

Results

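The genes described here are 5 developmental isoforms of sarcomere proteins: Myh3, the embryonic myosin heavy chain; Myh8, the neonatal myosin heavy chain; Myl4, the embryonic and atrial myosin light chain; Actc1, the cardiac alpha-actin; and Tnnt2, the cardiac troponin T. They were chosen by symbol, as the rows of the expression table that carry these names, and make up 5 of the 54532 genes listed and 5 of the 14630 genes expressed highly enough to be tested. Bulk RNA of the tibialis anterior, a leg muscle, was sequenced after volumetric muscle loss (VML), a model in which 40% of that muscle was surgically removed. All mice were C57BL/6 males aged 8 weeks, and the sources differ on whether 1 or both legs were operated. The groups were uninjured muscle (5 samples) and muscle taken 3, 7, 14 and 21 days after VML (5, 6, 6 and 5 samples). The labels do not say that the samples of a group came from separate mice, so the p-values below measure the spread between these samples, which may be partly technical.

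Muscle fibres contract through sarcomeres, in which thick filaments of myosin pull on thin filaments of actin, under the control of the troponin complex. Fibres that are being built, in the embryo or after injury, first use developmental isoforms of these proteins, and later replace them with the adult fast and slow isoforms. Embryonic myosin is a widely used marker of regenerating fibres. Cardiac actin and cardiac troponin T are also made in fetal skeletal muscle, and Myl4 is shared by embryonic skeletal muscle and the atria of the heart.

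Myh3 (ENSMUSG00000020908) lies on the plus strand at chr11:67078300-67102291 of GRCm38 and Myh8 (ENSMUSG00000055775) at chr11:67277124-67308634, in the same cluster as the adult genes Myh1, Myh2 and Myh4. Myl4 (ENSMUSG00000061086) is on the same chromosome at chr11:104550663-104595753. Tnnt2 (ENSMUSG00000026414) lies at chr1:135836354-135852260 on the plus strand and Actc1 (ENSMUSG00000068614) at chr2:114047282-114053548 on the minus strand. All 5 positions in the table were those of GENCODE M21.

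Whether promoter sequence bears on the calls given below was not tested. The promoter windows of the 2 myosins, of Tnnt2 and of Actc1 are shown to let their sequences be compared. Each holds 300 bases from RefSeq on GRCm38.p6, from 250 bases before the annotated start of transcription to 50 after it, read along the gene. Capitals mark matches on either strand to 5 motifs. Among them are the E-box CANNTG, to which myogenic bHLH factors bind, the TATA box TATAAA and the MCAT element CATTCC bound by TEAD factors. The others are the MEF2 site and the CArG box bound by serum response factor. Both were searched as patterns that take A or T at each middle base.
Myh3, plus strand, chr11:67078050-67078349: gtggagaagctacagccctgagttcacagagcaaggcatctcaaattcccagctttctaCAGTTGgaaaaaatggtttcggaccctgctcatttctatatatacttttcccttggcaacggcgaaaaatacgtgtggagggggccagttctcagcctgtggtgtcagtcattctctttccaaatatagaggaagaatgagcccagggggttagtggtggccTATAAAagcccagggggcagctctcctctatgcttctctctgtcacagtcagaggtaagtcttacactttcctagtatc
Myh8, plus strand, chr11:67276874-67277173: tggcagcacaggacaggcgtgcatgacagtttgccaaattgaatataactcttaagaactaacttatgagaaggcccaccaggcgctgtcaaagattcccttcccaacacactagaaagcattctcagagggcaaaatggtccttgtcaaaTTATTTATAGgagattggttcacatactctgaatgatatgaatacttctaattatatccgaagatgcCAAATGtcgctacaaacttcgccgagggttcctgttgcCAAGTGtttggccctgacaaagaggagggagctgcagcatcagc
Tnnt2, plus strand, chr1:135836084-135836383: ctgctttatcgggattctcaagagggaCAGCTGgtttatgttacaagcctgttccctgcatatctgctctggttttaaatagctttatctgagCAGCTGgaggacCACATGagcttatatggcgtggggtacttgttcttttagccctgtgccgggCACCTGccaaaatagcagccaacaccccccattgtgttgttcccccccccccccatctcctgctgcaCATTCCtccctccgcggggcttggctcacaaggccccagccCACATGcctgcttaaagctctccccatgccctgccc
Actc1, minus strand, chr2:114052826-114053125: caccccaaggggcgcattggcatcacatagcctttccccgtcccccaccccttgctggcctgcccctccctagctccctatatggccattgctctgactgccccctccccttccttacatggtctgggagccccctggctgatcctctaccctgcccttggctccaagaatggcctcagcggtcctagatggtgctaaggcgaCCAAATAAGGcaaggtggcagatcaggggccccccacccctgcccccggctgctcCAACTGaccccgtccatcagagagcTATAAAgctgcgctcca

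Counting the start base as 0, the Myh3 window held a TATA box at -29 to -24 and 1 E-box. The Myh8 window held 2 E-boxes and a MEF2 match at -99 to -90, inside which a reverse TATAAA also fell. The Tnnt2 window held 5 E-boxes and an MCAT match at -27 to -22. The Actc1 window held a CArG box at -47 to -38, 1 E-box, and a TATAAA at 33 to 38, after the RefSeq start, which lies inside the gene as the table places it. The Myl4 window held none of the 5 motifs, and a second RefSeq start of Tnnt2 held 2 E-boxes. Among the 32851 promoter windows of the same length, 72.3% held an E-box, 13.6% the TATA box, 14.7% the MCAT letters, 3.19% a MEF2 match and 1.63% a CArG box, so an E-box is the usual state of such a window.

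Values are FPKM, fragments per gene scaled to gene length and sequencing depth, and total reads per sample ranged from 14376395 to 24436763. The denominators behind FPKM were 0.747 to 1.48 times these totals, and their group means ran from 0.782 in uninjured muscle to 1.25 at day 3. In these bulk samples, fewer cells of a type and less RNA per cell cannot be told apart. Lengths were those of all exons merged, 11772 bases for Myh8 against 6149 for its principal transcript and 7752 for Tnnt2 against 1148.5 for the mean of its principal transcripts, so levels of different genes on this scale are only roughly comparable. Of the 50-base windows of Myh8, 12.1% occur also in other genes, chiefly Myh2, Myh1 and Myh4, and of Myh3 4.76%, so some reads of the myosins cannot be assigned with certainty. The libraries carry no strand, and the antisense gene Gm11665 that overlaps Myl4 had at most 30 reads in any sample.

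In the marker lists, 4 libraries stood apart from their groups. Day 3 replicate 5 and day 7 replicate 5 each lay with the other group in several measures, but not in all. The summed FPKM of 5 macrophage markers was 297 in day 3 replicate 5 against 966 to 2086 in the other day 3 samples, and 1942 in day 7 replicate 5 against 40.8 to 392 in the other day 7 samples. In the FPKM of each of the 5 developmental isoforms, day 7 replicate 5 lay below the other 4 day 3 samples. It had 20.1 for Myh3, 1.81 for Myh8, 15.8 for Myl4, 10.4 for Tnnt2 and 84.8 for Actc1. Those day 3 samples were at 57.0 to 69.6, 7.16 to 10.3, 45.3 to 60.6, 22.6 to 30.5 and 222 to 371. Day 7 replicates 3 and 6 had a summed FPKM of 33240 and 27908 for 5 markers of mature fibres (Ckm, Pvalb, Ttn, Neb and Atp2a1), near the 22413 to 31449 of uninjured muscle and above the 5858 to 12316 of the other day 7 samples. They had summed FPKM of 119 and 96.6 for 10 genes of muscle precursors and regenerating fibres, against 94.5 to 113 in uninjured muscle. Not every list placed them with uninjured muscle. Their summed FPKM was 443 and 245 for fibroblast markers, against 39.2 to 105 in uninjured muscle. For the macrophage markers it was 117 and 40.8, against 15.4 to 22.3. For other embryonic or cardiac sarcomere genes it was 9.80 in replicate 3 and 188 in replicate 6, against 8.925 to 24.5. Smooth muscle and myofibroblast sums, 74.5 and 97.8, lay within the uninjured range of 55.2 to 135.

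The embryonic myosin Myh3 went from nearly absent to its highest level by day 3, with lower group means at each later time. In uninjured muscle its FPKM was 0.669, 0.566, 0.633, 0.228 and 0.485 in replicates 1 to 5, from 17 to 59 reads. At day 3 it was 62.6, 57.0, 58.0, 69.6 and 28.8. Every day 3 sample lay above every uninjured sample, and replicate 5 was the lowest of the group. At day 7 Myh3 ranged from 0.436 to 49.7 with a median of 22.1, and replicates 3 and 6, at 0.436 and 0.967, lay at the uninjured level or just above it. At day 14 it ranged from 3.70 to 14.6 with a median of 11.1, and at day 21 it was 4.13, 4.65, 3.63, 2.40 and 1.02. The day 14 and day 21 samples all lay above every uninjured sample.

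The neonatal myosin Myh8, which follows the embryonic form in development, was higher after injury too. Its FPKM in uninjured muscle was 0.198, 0.232, 0.985, 0.193 and 0.168, with replicate 3 far above the other 4. At day 3 it was 9.15, 7.58, 7.16, 10.3 and 45.5, so that replicate 5, the lowest for Myh3, was the highest for Myh8. At day 7 Myh8 ranged from 0.409 in replicate 3 to 55.3 in replicate 4 with a median of 9.63, and 4 of the 6 samples, all but replicates 3 and 6, lay above every uninjured sample. At day 14 it ranged from 3.13 to 16.3 with a median of 12.7, and at day 21 it was 5.22, 3.97, 4.20, 1.51 and 3.42. Neither of these last groups overlapped with uninjured muscle.

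Myl4, the light chain that pairs with the developmental heavy chains, had a measurable level before injury. Its FPKM in uninjured muscle was 1.93, 3.63, 5.05, 1.87 and 3.12. At day 3 it was 49.6, 45.3, 52.7, 60.6 and 42.7, the tightest group of day 3 values among the 5 genes. At day 7 it ranged from 1.27 in replicate 3 to 69.9 in replicate 4 with a median of 22.9, at day 14 from 5.74 to 17.2 with a median of 11.7. At day 21 it was 9.87, 12.9, 10.2, 8.15 and 6.84, still above all uninjured samples and overlapping with day 14.

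The cardiac troponin T, Tnnt2, which binds the thin filament and passes the calcium signal to it, also peaked at day 3. Its FPKM was 0.494, 0.787, 1.02, 0.534 and 0.476 in uninjured muscle. At day 3 it was 29.5, 30.5, 22.6, 26.8 and 8.78, with replicate 5 again apart from the others. At day 7 it ranged from 0.265 in replicate 3 to 12.7 in replicate 4 with a median of 7.06, and at day 14 from 2.67 to 6.31 with a median of 3.34. At day 21 the values were 3.03, 3.07, 3.02, 3.60 and 1.53, so 4 samples lay close together above the fifth and all 5 above uninjured muscle.

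The groups of the cardiac actin Actc1, the main sarcomeric actin of the heart, overlapped at every time. It was the only one of the 5 with a high level before injury, at 426, 369, 102, 191 and 138 FPKM. At day 3 it was 371, 222, 264, 226 and 722. At day 7 it ranged from 80.4 to 589 with a median of 152, and at day 14 from 198 to 642 with a median of 326. At day 21 it was 751, 433, 226, 632 and 176, with 3 of the 5 samples above the highest uninjured sample. The spread within a group, with SDs of 144 to 250 FPKM, was as large as the differences between group means, which ran from 228 at day 7 to 444 at day 21.

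**Figure D1:**
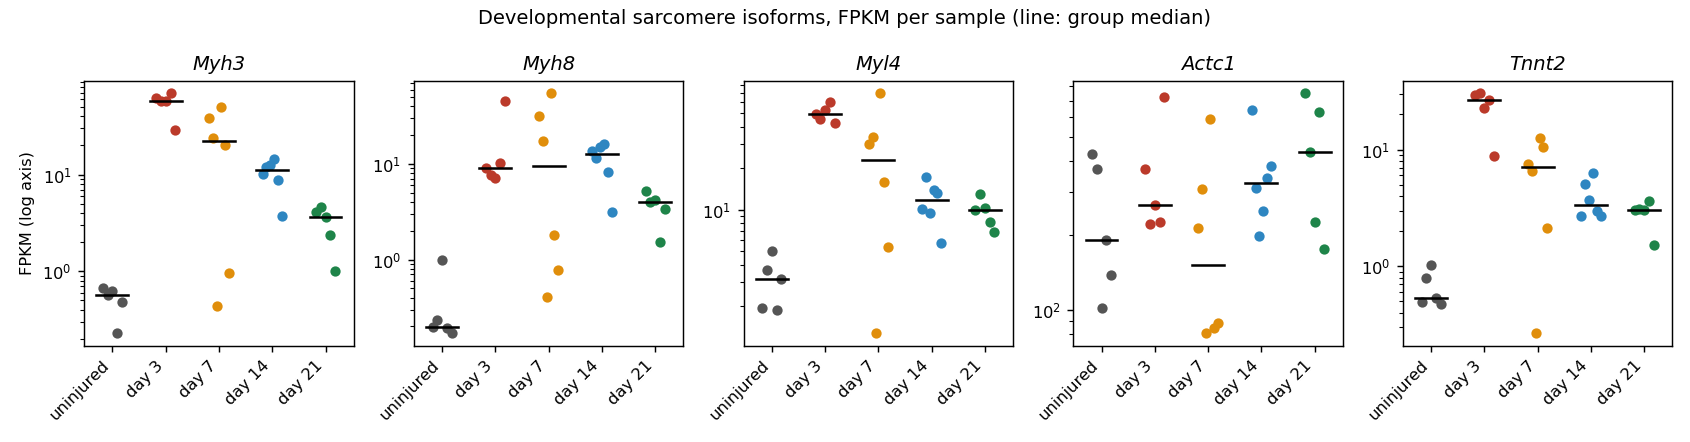
FPKM (log axis) of the 5 genes in each sample, by group; each point is 1 sample and the line is the group median. Myh3, Myh8, Myl4 and Tnnt2 lay above every uninjured sample at days 3, 14 and 21. At day 7 all samples but 1 did so in Myh3, Myl4 and Tnnt2 and all but 2 in Myh8, and the groups of Actc1 overlapped.

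Ordered by group mean (± SD), Myh3 ran from 55.2 ± 15.6 (n = 5) at day 3 through 22.2 ± 19.7 (n = 6) at day 7, 10.3 ± 3.79 (n = 6) at day 14 and 3.17 ± 1.46 (n = 5) at day 21 to 0.516 ± 0.176 (n = 5) in uninjured muscle. Myl4 and Tnnt2 kept the same order, from 50.2 ± 6.98 to 3.12 ± 1.32 and from 23.6 ± 8.85 to 0.663 ± 0.237. The means of Myh8 were 17.9 ± 22.1 at day 7, 15.9 ± 16.6 at day 3, 11.4 ± 4.92 at day 14, 3.66 ± 1.37 at day 21 and 0.355 ± 0.353 in uninjured muscle. The place of day 7 in this order rested on replicate 4, without which its mean was 10.4 ± 13.8 (n = 5), below those of day 3 and day 14. In these 4 genes the ranges of each pair of neighbours in the order overlapped, except day 21 and uninjured muscle. For Actc1 the order was day 21, day 3, day 14, uninjured and day 7, and all neighbours overlapped.

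The first comparison asked which of the genes differed from uninjured muscle at each time. At day 3 the 4 genes Myh3, Myh8, Myl4 and Tnnt2 were higher, and Actc1 was not called. By limma on log2(FPKM + 1) with Benjamini-Hochberg adjustment over all genes tested, 23.4% of all genes were called higher at day 3, against 4 of these 5. This background moved with the scaling of the samples: it was 47.5% with FPKM rescaled to a common sum, where all 5 were called, and 44.7% with sample totals as denominators, where 4 were. The log2 fold change of Myh3 was 5.16 (SE 0.68, adjusted p = 3.23e-06), 35.8-fold on this scale. That of Tnnt2 was 3.79 (SE 0.44, adjusted p = 6.41e-07), that of Myl4 3.68 (SE 0.55, adjusted p = 1.32e-05) and that of Myh8 3.30 (SE 0.74, adjusted p = 0.000907). Actc1 differed by 0.61 (SE 0.52, adjusted p = 0.370). In 4 of the 5 genes all day 3 samples lay above all uninjured samples, as did 19.8% of all genes tested. Without day 3 replicate 5 and day 7 replicate 5, the same 4 genes were called, with log2 fold changes of 5.38 for Myh3, 4.10 for Tnnt2, 3.74 for Myl4 and 2.84 for Myh8. Of all genes, 3489 were called higher in that fit, against 3417 with all samples.

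At day 7 the same 4 genes were called higher, against 15% of all genes, or 43.6% and 36.6% under those 2 scalings, with 4 called under each. The log2 fold changes were 2.99 for Myh3 (SE 0.65, adjusted p = 0.00178), 2.57 for Myh8 (SE 0.71, adjusted p = 0.00881), 2.04 for Myl4 (SE 0.53, adjusted p = 0.00571) and 1.83 for Tnnt2 (SE 0.42, adjusted p = 0.00252). None of the 5 genes was free of overlap with uninjured muscle, while 7.25% of all genes were. Actc1 was at -0.32 (SE 0.50, adjusted p = 0.668), a sign that turned under 3 other scalings of the data. With day 7 replicates 3 and 6 left out, a choice made after their values were seen, the values were 4.41 for Myh3, 3.73 for Myh8, 3.09 for Myl4 and 2.60 for Tnnt2. Fitted with only the day 7 and uninjured samples, Myh8 (adjusted p = 0.0610) and Myl4 (adjusted p = 0.0635) were not called. That fit called 1434 of all genes higher, against 2189 with all samples.

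At day 14 Myh8 had the largest difference of the 5 genes, at 3.08 (SE 0.71, adjusted p = 0.00427), followed by Myh3 at 2.81 (SE 0.65, adjusted p = 0.00432). Myl4 was at 1.60 (SE 0.53, adjusted p = 0.0320) and Tnnt2 at 1.52 (SE 0.42, adjusted p = 0.0121). These 4 were called, against 9.02% of all genes called higher. The share of all genes was 14.3% with FPKM rescaled to a common sum and 15.55% with sample totals as denominators, with 4 called under each. All 4 had no overlap with uninjured muscle, against 7.67% of all genes. Actc1 was at 0.64 (SE 0.50, adjusted p = 0.379). The call of Myl4 was lost when uninjured replicate 1 (adjusted p = 0.0744), 4 (0.0732) or 5 (0.0561) or day 14 replicate 2 (0.0592), 4 (0.0614) or 5 (0.0652) was left out. In these fits 835 to 1276 of all genes were called higher, against 1320 with all samples.

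At day 21 none of the 5 genes passed the limma test, in which 1.74% of all genes were called higher. Log2 fold changes were 1.75 for Myh8 (SE 0.74, adjusted p = 0.186), 1.39 for Myl4 (SE 0.55, adjusted p = 0.153), 1.38 for Myh3 (SE 0.68, adjusted p = 0.260), 1.19 for Tnnt2 (SE 0.44, adjusted p = 0.122) and 0.85 for Actc1 (SE 0.52, adjusted p = 0.379). Myh8, Myl4 and Tnnt2 had an unadjusted p under 0.05. All 5 day 21 samples nevertheless lay above all 5 uninjured samples in Myh3, Myh8, Myl4 and Tnnt2, as they did in 5.26% of all genes. This limma fit takes its estimate of spread from all groups, among them day 7. With only the day 21 and uninjured samples in the fit, these 4 genes were called, with adjusted p = 0.00227 for Myh8, 0.00250 for Tnnt2, 0.00494 for Myl4 and 0.00810 for Myh3. That fit called 757 of all 14630 genes higher, against 255 with all samples. Without day 7 replicates 3 and 6, Myl4, Tnnt2 and Myh3 were called, and 442 of all genes were called higher. Voom weights on recovered reads called 0 of the 5, with 143 of all genes called higher.

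**Figure D2:**
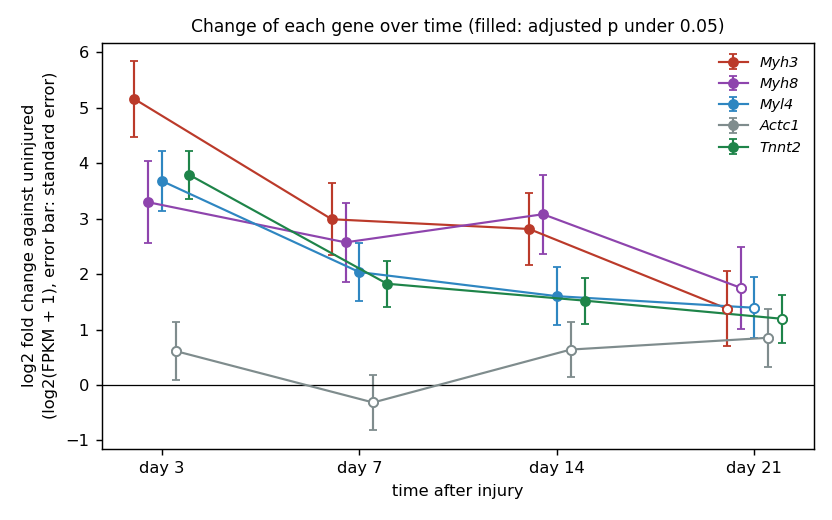
Log2 fold change of each gene against uninjured muscle on the log2(FPKM + 1) scale (y axis) at days 3, 7, 14 and 21 (x axis); error bars are standard errors, filled points had an adjusted p under 0.05. Myh3 was at 5.16 at day 3 and 1.38 at day 21, Myh8 was at 3.30, 2.57, 3.08 and 1.75, and Actc1 stayed between -0.32 and 0.85.

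The next comparisons asked whether the genes moved between injured time points, and they share samples with those above. From day 3 to day 7, Myh3 was at -2.17 (SE 0.65, adjusted p = 0.0945), Tnnt2 at -1.96 (SE 0.42, adjusted p = 0.0614) and Myl4 at -1.65 (SE 0.53, adjusted p = 0.110), and none of the 5 was called by limma, against 0.0478% of all genes. These 3 had an unadjusted p under 0.05, and voom on recovered reads called 0 of the 5. Without day 3 replicate 5 and day 7 replicate 5 together, Myh3 fell by 2.55 (adjusted p = 0.0167) and Tnnt2 by 2.46 (adjusted p = 0.000121), and Myl4 was at -1.71 (adjusted p = 0.0570). Over all 14630 genes, 517 were called higher and 1748 lower without the pair, against 0 and 7 with all samples. Day 3 replicate 5 was the lowest day 3 sample in these 3 genes, so leaving it out raised their day 3 means. Leaving out a single library had a like effect: Tnnt2 was called without day 3 replicate 5 (adjusted p = 0.00514), day 7 replicate 4 (0.0281) or day 7 replicate 5 (0.000863), and Myh3 without day 3 replicate 5 (0.0457) or day 7 replicate 5 (0.0229). Without day 3 replicate 5, 82 of all genes were called higher and 648 lower. These counts were 317 and 1475 without day 7 replicate 5, and 0 and 21 without day 7 replicate 4. Myh8 was at -0.72 (SE 0.71, adjusted p = 0.692), and at 0.031 without the pair.

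From day 7 to day 14 none of the 5 genes was called, against 0.335% of all genes, none had an unadjusted p under 0.05 and voom called 0 of the 5. Myh3 was at -0.18 (SE 0.62), Myl4 at -0.43 (SE 0.50), Tnnt2 at -0.30 (SE 0.40), Myh8 at 0.51 (SE 0.68) and Actc1 at 0.95 (SE 0.48). From day 14 to day 21 limma called none of the 5 and 0% of all genes, although 909 genes, Myh3 among them, had an unadjusted p under 0.05, and voom called 0 genes as well. Myh3 was at -1.44 (SE 0.65, adjusted p = 0.757) and Myh8 at -1.33 (SE 0.71, adjusted p = 0.757) in this step, and Myl4, Tnnt2 and Actc1 lay between -0.33 and 0.21.

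From day 7 to day 21 none of the 5 was called, against 2.25% of all genes, and voom called 0 of the 5. Actc1 was at 1.17 (SE 0.50, adjusted p = 0.181) and Myh3 at -1.61 (SE 0.65, adjusted p = 0.158), both with an unadjusted p under 0.05. Day 7 replicates 3 and 6 bear on this comparison: without replicate 3, Myh3 (adjusted p = 0.0222) and Tnnt2 (0.0458) were called, and without replicate 6, Myh3 (0.0283). Of all 14630 genes, 311 were called higher and 575 lower without replicate 3, and 500 and 761 without replicate 6. With both left out, Myh3 fell by 3.03, Myh8 was at -1.98, Myl4 at -1.69 and Tnnt2 at -1.41, and these 4 were called, with Actc1 at 0.67 (adjusted p = 0.387). Over all genes, 1336 were called higher and 1634 lower in that fit, against 73 and 256 with all samples. From day 7 to day 14, leaving out both gave calls of Myh3 (-1.59), Myl4 (-1.48) and Tnnt2 (-1.08). In that step 229 of all genes were called higher and 495 lower, against 17 and 32 with all samples.

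A second measure does not depend on how samples were scaled against each other: the share of each developmental isoform in the summed FPKM of its own family within a sample. Myosin heavy chains were Myh1, Myh2, Myh3, Myh4, Myh7 and Myh8; light chains were Myl1, Myl3 and Myl4; actins were Acta1 and Actc1; and troponins T were Tnnt1, Tnnt2 and Tnnt3. A share moves with the adult isoforms too. Its level depends on the gene lengths and on which genes are counted as the family. With principal transcript lengths, a choice made after the data were seen, the mean day 3 shares were 2.34% for Myh3, 0.996% for Myh8, 3.38% for Myl4, 1.87% for Actc1 and 1.83% for Tnnt2, against 2.42%, 0.542%, 1.73%, 1.81% and 0.499% with the lengths of the table. As shares of reads with no length they were 2.34%, 1.02%, 3.77%, 1.90% and 2.37%, and with 3 more light chains in the family (Myl2, Myl6b and Mylpf) that of Myl4 was 0.609%. The ratios to the uninjured mean moved less, with day 3 ratios for Tnnt2 of 114 to 118 and for Myl4 of 42.3 to 48.4 over these choices. Shares were compared with uninjured muscle by two-sided exact permutation tests, adjusted over the 4 times, whose smallest unadjusted p is 0.00794 for 5 against 5 samples and 0.00433 for 5 against 6.

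Myh3 made up 0.0105%, 0.00773%, 0.00973%, 0.00336% and 0.00670% of the myosin heavy chain FPKM in uninjured muscle. At day 3 the shares were 1.95%, 1.87%, 2.55%, 5.01% and 0.706%. The mean rose from 0.00760% ± 0.00281 (SD, n = 5) to 2.42% ± 1.59 (n = 5, exact adjusted p = 0.0106), 318 times as much. It was 0.815% ± 0.746 at day 7 (n = 6, exact adjusted p = 0.0260), 0.236% ± 0.10 at day 14 (n = 6, exact adjusted p = 0.0106) and 0.0602% ± 0.0321 at day 21 (n = 5, exact adjusted p = 0.0106). At day 21 the samples stood at 0.0708%, 0.0968%, 0.0784%, 0.0374% and 0.0175%, all above the highest uninjured share. Without uninjured replicate 4 the day 7 difference of Myh3 missed the threshold (exact adjusted p = 0.0571).

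The share of Myh8 was 0.00531% ± 0.00550 (n = 5) in uninjured muscle and 0.542% ± 0.380 at day 3 (n = 5, exact adjusted p = 0.0106). It was 0.635% ± 0.840 at day 7 (n = 6, exact adjusted p = 0.0303), 0.261% ± 0.125 at day 14 (n = 6, exact adjusted p = 0.0106) and 0.0690% ± 0.0285 at day 21 (n = 5, exact adjusted p = 0.0106). The uninjured mean of Myh8 was carried by replicate 3, at 0.0151%, and was 0.00286% ± 0.000381 (n = 4) without it. At day 14 and day 21 the mean shares of Myh8 were 49.1 and 13 times the uninjured mean, or 91.3 and 24.2 times without that sample, and those of Myh3 31.0 and 7.93 times, or 33.4 and 8.53 times. The day 7 difference of Myh8 rested on single libraries: it missed the threshold without any of uninjured replicates 1, 2, 4 and 5 (exact adjusted p = 0.0571) or day 7 replicates 1, 2, 4 and 5 (0.0556).

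Myl4 made up 0.0358% ± 0.0167 (n = 5) of the 3 light chains in uninjured muscle and 1.73% ± 1.07 at day 3 (n = 5, exact adjusted p = 0.0115). It was at 0.590% ± 0.508 at day 7 (n = 6, exact adjusted p = 0.0519), 0.148% ± 0.0613 at day 14 (n = 6, exact adjusted p = 0.0115) and 0.108% ± 0.0241 at day 21 (n = 5, exact adjusted p = 0.0115). Without day 7 replicate 3 (exact adjusted p = 0.0159) or 6 (0.0476) the day 7 difference of Myl4 passed. At day 14, 5 of 6 samples lay above every uninjured share, with replicate 6 at 0.0468% below the highest of them, 0.0610%.

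Tnnt2 made up 0.00424% ± 0.00143 (n = 5) of the troponins T in uninjured muscle, 0.499% ± 0.307 at day 3 (n = 5, exact adjusted p = 0.0106) and 0.125% ± 0.117 at day 7 (n = 6, exact adjusted p = 0.0260). It was 0.0442% ± 0.0179 at day 14 (n = 6, exact adjusted p = 0.0106) and 0.0216% ± 0.00527 at day 21 (n = 5, exact adjusted p = 0.0106), 5.10 times the uninjured mean. Day 7 replicate 5 had the highest Tnnt2 share of its group, 0.303%, and day 3 replicate 5 the lowest of its own, 0.108%.

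Actc1 made up 0.774% ± 0.480 (n = 5) of the 2 sarcomeric actins in uninjured muscle. Its share was 1.81% ± 0.745 at day 3 (n = 5, exact adjusted p = 0.110), 1.29% ± 1.29 at day 7 (n = 6, exact adjusted p = 0.524), 1.66% ± 0.932 at day 14 (n = 6, exact adjusted p = 0.110) and 1.48% ± 0.594 at day 21 (n = 5, exact adjusted p = 0.110). The unadjusted p at day 3 was 0.0317 by the exact permutation test. At day 3, 4 of 5 samples lay above the highest uninjured share, at day 21 3 of 5.

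**Figure D3:**
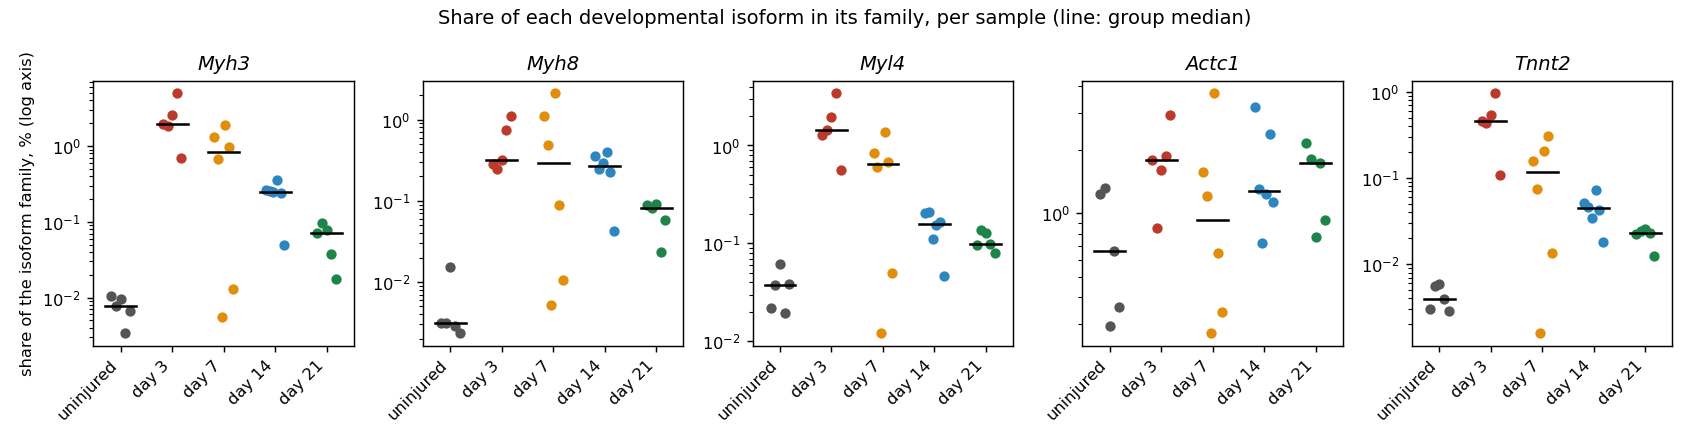
Share (%, log axis) of each gene in the summed FPKM of its isoform family in each sample, by group; points are samples and lines group medians. The shares of Myh3, Myh8 and Tnnt2 at days 3, 14 and 21 lay above every uninjured sample, and that of Myl4 at days 3 and 21.

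The 2 developmental myosins were also compared with each other, as the difference of log2(FPKM + 1) of Myh8 minus Myh3 within a sample. It was -0.48, -0.35, 0.28, -0.041 and -0.35 in uninjured muscle, and -2.65, -2.76, -2.86, -2.64 and 0.64 at day 3. Embryonic myosin thus prevailed in 4 of 5 day 3 samples, and replicate 5 was far from these. At day 7 the difference was -0.26, -0.44, -0.028, 0.15, -2.90 and -0.14, with replicate 5 at the level of the 4 day 3 samples. At day 14 it ranged from -0.18 to 0.39 with a median of 0.053, and at day 21 from -0.44 to 1.13 with a median of 0.17.

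The mean difference rose by 1.45 from day 3 to day 7 (two-sided exact permutation p = 0.134, adjusted over 3 steps 0.201), by 0.68 from day 7 to day 14 (p = 0.0671, adjusted 0.201) and by 0.11 from day 14 to day 21 (p = 0.719), none past the threshold. Without day 3 replicate 5 and day 7 replicate 5, the first step was 2.58 (exact adjusted p = 0.0476). Both libraries were apart from their groups in this same difference, so leaving them out could only widen the step. Since the length used for Myh8 is longer than its principal transcript, the level of this difference lies lower than it would with that transcript's length, and the steps between times are affected only through the pseudocount.

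**Figure D4:**
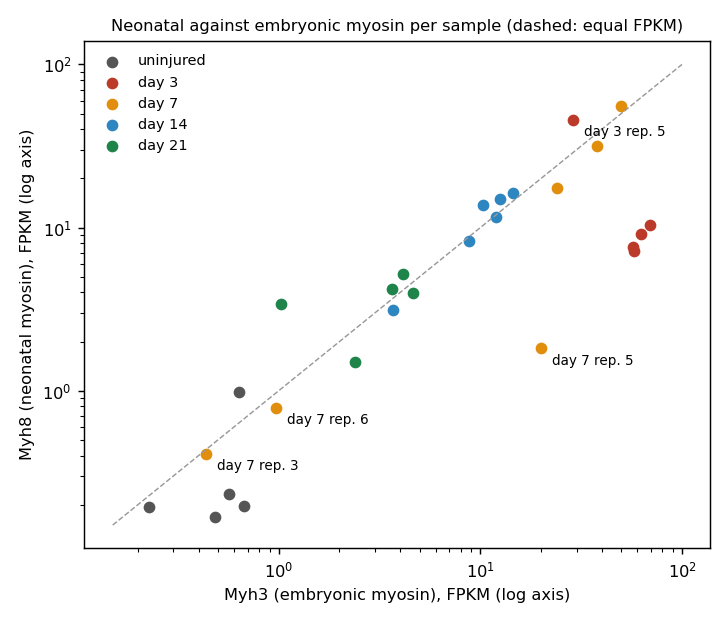
FPKM of Myh8 (y axis) against Myh3 (x axis) in each sample, both on log axes, coloured by group; the dashed line marks equal FPKM. The other 4 day 3 samples and day 7 replicate 5 lay well below the line, and day 3 replicate 5 lay above it.

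Cells other than skeletal fibres could carry some of these genes, so the markers of each were read. Of 7 heart muscle markers, Myl7 was at 0 in all 27 samples, Nppa, Nppb, Nkx2-5, Gata4 and Tbx5 had at most 7 reads in any sample, and only Myh6 was high enough to test, with no call at any time. The summed FPKM of the 7 was 0.101 to 1.25 in uninjured muscle, and 0.309 to 0.720, 0.0332 to 2.24, 0 to 0.747 and 0.337 to 0.812 at days 3, 7, 14 and 21. Of 5 smooth muscle and myofibroblast markers, Acta2 was called higher and Myh11 lower at day 3 and none at later times, and the summed FPKM was 55.2 to 135 in uninjured muscle, and 113 to 183, 48.8 to 117, 52.6 to 139 and 82.7 to 133 at the 4 times.

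Markers of macrophages and fibroblasts were also called higher after injury. Of 5 macrophage markers (Ptprc, Cd68, Adgre1, Itgam and Lyz2), 5, 4, 2 and 0 were called higher at days 3, 7, 14 and 21, with summed FPKM of 15.4 to 22.3 in uninjured muscle and 297 to 2086, 40.8 to 1942, 40.3 to 96.5 and 28.7 to 53.4 at the 4 times. The lowest day 3 sum and the highest day 7 sum were those of replicate 5 of each group. Of 4 fibroblast markers (Pdgfra, Dcn, Col1a1 and Col3a1), 3, 3, 3 and 2 were called higher, with summed FPKM of 39.2 to 105 in uninjured muscle and 367 to 745, 245 to 1011, 130 to 502 and 106 to 188 afterwards. The shares of all genes called higher were 23.4%, 15%, 9.02% and 1.74% at these times. After quantile normalization, rescaling to a common sum or with sample totals as denominators, 0 of the fibroblast markers were called at day 21. Of all genes, 1.05%, 0.437% and 0.725% were called higher then. Of the 5 markers of mature fibres, 5, 3, 1 and 0 were called lower, against 19.8%, 14.4%, 11.3% and 1.69% of all genes, with summed FPKM of 22413 to 31449 in uninjured muscle, and 3165 to 14275, 5858 to 33240, 11914 to 27743 and 18409 to 39264 at the 4 times. The highest day 7 sums were those of replicates 3 and 6. After rescaling to a common sum, 1 of these 5 was called lower at day 3 and 0 at day 7, and with sample totals as denominators 4 and 0, and after quantile normalization 3 and 0. Of all genes, 2.21%, 4.22% and 25.5% were called lower at day 3 under these scalings. At day 7 these shares were 1.44%, 2.90% and 14.7%. The part of these cell types in the values above was not tested.

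Among the adult counterparts of the 5 genes, the fast myosin Myh4 was called lower and the slow troponin T Tnnt1 higher at day 3 under each scaling tried, and the other calls at day 3 depended on the scaling. Of 11 genes, 5 were called lower and 1 higher at day 3, 3 lower and 1 higher at day 7, 1 higher at day 14 and none at day 21, and their median log2 fold changes were -1.07, -0.74, -0.15 and -0.26, with medians over all genes of 0.012 to 0.028. The share of all genes called lower was 19.8% at day 3 and 14.4% at day 7. After rescaling to a common sum, which moved the median of all genes by 0.72 at day 3, and with sample totals as denominators, which moved it by 0.46, 3 were called lower at day 3 (Myh4, Myl1 and Tnnt3) and 0 at day 7, against 2.21% and 4.22% of all genes lower at day 3. Quantile normalization called 1 lower at each of these times, Myh4 at day 3 and Myl3 at day 7, against 25.5% and 14.7% of all genes. Tnnt1 was called higher at days 3, 7 and 14 under each of these scalings. On the deposited scale, the 5 called lower at day 3 were Myh4, the fastest adult myosin heavy chain (-1.94, SE 0.43, adjusted p = 0.000798), Tnnt3, the fast troponin T (-1.57, adjusted p = 0.00174), Myl1, the fast light chain (-1.41, adjusted p = 0.00341), Mylpf, the fast regulatory light chain (-1.07, adjusted p = 0.0297), and Acta1, the adult skeletal actin (-0.77, adjusted p = 0.0480). The one that rose was Tnnt1, the slow troponin T, by 3.11 at day 3 (SE 0.53, adjusted p = 5.47e-05) and by 2.48 at day 14 (SE 0.50, adjusted p = 0.00197). At day 7 Myh1 (-0.82, adjusted p = 0.0467) and Myl3 (-2.14, adjusted p = 0.0239) were lower along with Tnnt3 (-0.99, adjusted p = 0.0431). Myh4 still had a mean of 1497 ± 709 FPKM (n = 5) at day 3, far above Myh3.

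Other sarcomere genes known from embryonic or cardiac muscle divided by gene. Of 8, 7 could be tested. None was called lower, and their median log2 fold changes were 1.87, 0.83, 0.46 and 0.45 at days 3, 7, 14 and 21. At these times 5, 3, 3 and 1 were called higher, against 23.4%, 15%, 9.02% and 1.74% of all genes. At day 3 these were Tnni1, the slow troponin I (4.01, adjusted p = 5.53e-06), Mybph, a myosin-binding protein (3.64, adjusted p = 0.000442), Tnnc1, the slow and cardiac troponin C (3.21, adjusted p = 0.000543), Myl6b, a light chain (1.87, adjusted p = 0.000109), and Tnni3, the cardiac troponin I (0.55, adjusted p = 0.00164), which never exceeded 0.957 FPKM. Mybph was the one still called at day 21 on the deposited scale (2.87, SE 0.76, adjusted p = 0.0344). With FPKM rescaled to a common sum, quantile normalization or sample totals as denominators, 0 of the 7 were called then. Of all genes, 0.437%, 1.05% and 0.725% were called higher under these scalings. The means of Mybph were 2.50, 39.6, 49.6, 42.1 and 24.3 FPKM from uninjured muscle to day 21, and Myh6 and Myh7b were not called at any time.

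Genes of muscle precursors and regenerating fibres were called higher at each of the 4 times. Of 10, 8, 6, 6 and 5 were called higher at days 3, 7, 14 and 21 and none lower, with medians of 2.04, 1.35, 1.86 and 1.32. The shares of all genes called higher were 23.4%, 15%, 9.02% and 1.74%. At day 21 the count depended on the scaling. It was 2 with FPKM rescaled to a common sum and with sample totals as denominators, and 5 after quantile normalization. The shares of all genes called higher under these scalings were 0.437%, 0.725% and 1.05%. Mymk, the fusion factor myomaker, rose by 5.77 (SE 0.65, adjusted p = 5.45e-07) at day 3 and was 3.00 (SE 0.65, adjusted p = 0.0125) above uninjured muscle at day 21. Myog, the myogenic factor of differentiating cells, was higher by 5.63 at day 3 (adjusted p = 6.34e-06) and by 3.50 at the last time (adjusted p = 0.0146), and Chrng, the fetal subunit of the acetylcholine receptor, by 3.76 (adjusted p = 1.23e-05) and 3.10 (adjusted p = 0.00370). Myod1 and Ncam1 were the other 2 called at day 21 on the deposited scale. Pax7, the satellite cell factor, was called at day 3 only (0.54, adjusted p = 0.00845), Cdh15 likewise (1.01, adjusted p = 0.00812), and Myf5 and Myf6 at no time. Whether these lists differ in their course from the 5 developmental isoforms was not tested.

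**Figure D5:**
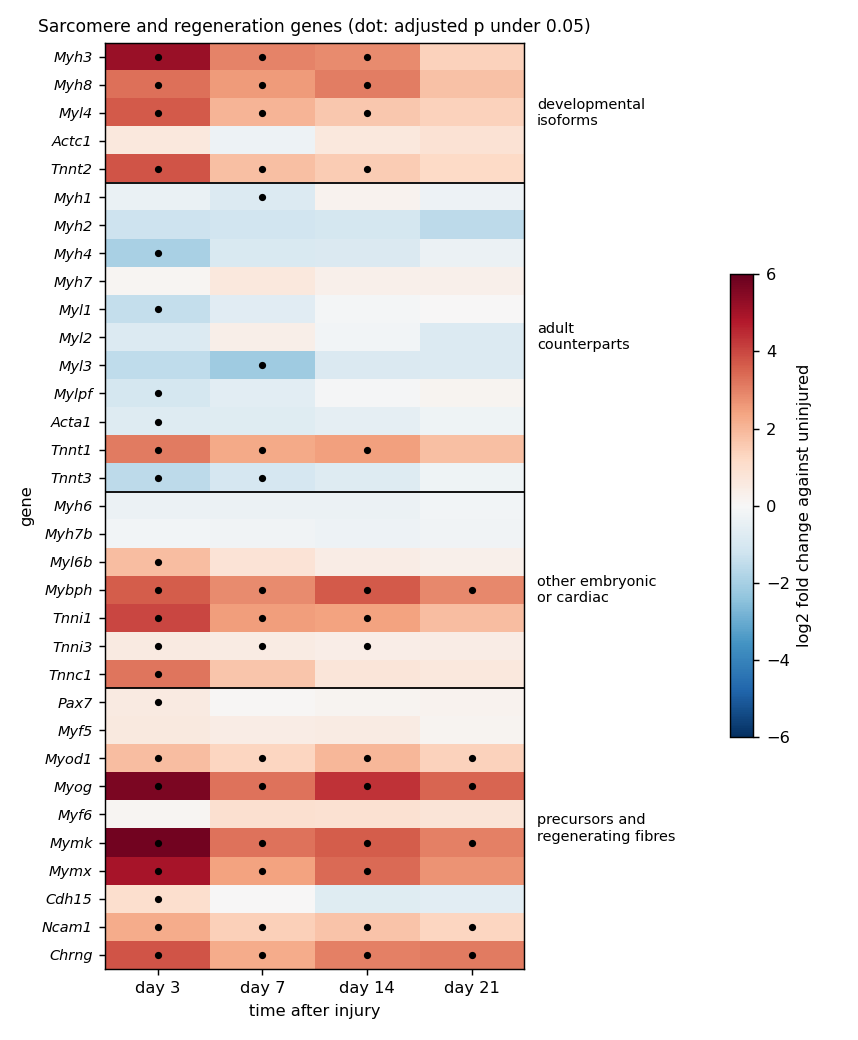
Log2 fold change against uninjured muscle (colour, on the log2(FPKM + 1) scale) of the 5 developmental isoforms, their adult counterparts, other embryonic or cardiac sarcomere genes and genes of precursors and regenerating fibres (rows) at 4 times (columns); dots mark an adjusted p under 0.05. Of the rows, 5 genes of precursors and regenerating fibres and Mybph carried a dot at day 21. These calls depended in part on the scaling.

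Over the 27 samples, the developmental isoforms followed each other to different degrees. Pearson's r of log2(FPKM + 1) was 0.954 between Myh3 and Myl4, 0.950 between Myh3 and Tnnt2 and 0.940 between Myl4 and Tnnt2. Myh8 was at 0.818 with Myh3, 0.818 with Myl4 and 0.665 with Tnnt2, and Actc1 at 0.201 to 0.453 with the others. These are descriptions over samples that share 5 groups and their sequencing, and no test was made.

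Among all other genes tested, the 3 most like Myh3 by the same measure were Fam171a2 (r = 0.948), Mymk (0.947) and Maged1 (0.943). Those most like Myl4 were Fam171a2 (0.943), Tnni1 (0.931) and Mymk (0.920). Those most like Tnnt2 were Tubb6, a beta-tubulin (0.945), Pld3 (0.941) and Spg21 (0.940). Those most like Myh8 were Maged2 (0.931), Mdfi (0.921) and the noncoding RNA H19 (0.915), whose mean FPKM was 222 in uninjured muscle and 981, 1201, 1010 and 554 at the 4 times after injury. No gene followed Actc1 as closely: the nearest were D930048N14Rik (0.742), Zfp385b (0.674) and Zc2hc1a (0.654).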

How the data were processed

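Total RNA of 27 tibialis anterior samples was sequenced from poly-A selected, non-directional libraries on a NovaSeq instrument. The authors aligned reads with HISAT2 2.0.5, counted them per gene with featureCounts 1.5.0-p3 and the deposited file gives FPKM, gene length and GRCm38 position for each gene. In every sample, FPKM times length gave whole reads for 100% of genes above 0 (tolerance 0.01). Of the 54532 genes, 54409 were found in GENCODE M21, 98.3% with the same coordinates.

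Groups and replicate numbers came from sample titles. The 14630 genes that reached an FPKM of 0.5 in 5 or more samples entered the fit as log2(FPKM + 1) with limma 3.58.1 (R 4.3.3), a mean per group, all 27 samples and a variance trend, two-sided, adjusted after Benjamini-Hochberg within each comparison at 0.05. Because of the pseudocount, fold changes understate those of low genes. Shares and myosin differences were compared with two-sided exact permutation tests, in which p is the doubled smaller tail (Python 3.11.15, pandas 2.3.3, numpy 2.4.6, matplotlib 3.10.9). Scripts were tested on simulated data. The 5 genes, the lists and the markers were chosen with earlier results of these data known. Genes were named from these lists, plus, for each of the 5, the 3 tested genes with the highest Pearson r. Promoters came from RefSeq (GRCm38.p6). Alternatives for shares were principal transcript lengths, reads without lengths, broader families and a log scale. Others covered pseudocounts of 0.1 and 0.5, filters, scalings, weights, replicate blocks, the samples fitted and each sample left out.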

Additional observations from a re-analysis of the deposited data

Results flagged for a closer look

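In 55 groups of 4 to 10 samples, the highest or lowest sample was compared with the rest by Dixon's test, which chance alone would flag in about 1 in 20 groups, and 10 were flagged. Day 3 replicate 5 was apart from the other day 3 samples in 4 of them: Myh3 was low at 28.8 FPKM, Tnnt2 low at 8.78 FPKM, Myh8 high at 45.5 FPKM, and the log2 difference of Myh8 minus Myh3 high at 0.64. Day 7 replicate 5 was apart from the other day 7 samples in that same difference, at -2.90, a value near those of the other 4 day 3 samples. The cause was not tested.

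Uninjured replicate 3 was apart in Myh8, at 0.985 FPKM and a share of 0.0151% of myosin heavy chains. Day 14 replicate 6 had a low Myh3 share of 0.050%. Day 21 replicate 5 was low in Tnnt2, at 1.53 FPKM and a share of 0.0125% of troponins T.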

How the results depend on the processing

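Of the values for single genes under all alternatives, 1014 kept direction and call, 34 were newly called, 9 were no longer called and 18 turned sign. The number of the 5 genes called at day 3 and day 14 against uninjured muscle stayed within 3 to 5. At day 7 it was 2 with only the 2 groups fitted. At day 21 it was 1 with a pseudocount of 0.1 (Myh8), 4 with sample quality weights, 4 with only the 2 groups fitted and 3 without day 7 replicates 3 and 6. For day 7 against day 3 it was 2 with quality weights and 2 without day 3 replicate 5 and day 7 replicate 5, and 0 to 2 with single samples left out. For day 14 against day 7 it was 3 without day 7 replicates 3 and 6. For day 21 against day 7 it was 1 with quality weights, 4 without day 7 replicates 3 and 6, and 0 to 2 with single samples left out. The calls over all 14630 genes moved too. At day 21, 412 were called higher with that pseudocount, against 255 without these changes. The count was 1196 with quality weights, 757 with the 2 groups and 442 without day 7 replicates 3 and 6. Quality weights called 414 higher and 1478 lower for day 7 against day 3, against 0 and 7. For day 21 against day 7 they called 440 and 771, against 73 and 256. Apart from leaving out samples and fitting fewer groups, the cause was not tested.

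The difference in Myh8 share at day 7 was 0.739 percentage points and not called without day 3 replicate 5 and day 7 replicate 5 (0.332 to 0.756 with single samples left out). That of Myl4 was 0.834 and called without day 7 replicates 3 and 6 (0.400 to 0.670), and that of Myh3 ranged from 0.589 to 0.969. The step in Myh8 minus Myh3 from day 3 to day 7 was 2.58 and called without day 3 replicate 5 and day 7 replicate 5 (1.25 to 2.12 with single samples left out). Both of these libraries were apart from their groups in that same measure. The step from day 14 to day 21 ranged from -0.12 to 0.27.

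The day 7 value of Actc1 was above 0 after rescaling to a common sum of FPKM (0.41), quantile normalization (0.10), sample totals as denominators (0.23), quality weights (0.11) and without day 7 replicates 3 and 6 (0.18). Rescaling to a common sum moved the median of all genes by 0.72, 0.63, 0.41 and 0.17 at days 3, 7, 14 and 21, sample totals by 0.46, 0.38, 0.27 and 0.13, and quantile normalization by -0.14 at day 3. Under the common sum alone Actc1 was called at day 3 (1.44). Myh8 from day 3 to day 7 was 0.56 with quality weights, 0.031 without day 3 replicate 5 and day 7 replicate 5 and 0.43 without day 7 replicates 3 and 6 (-1.29 to -0.23 with single samples left out). From day 7 to day 14, Myh3 was 0.095 with a pseudocount of 0.1, 0.19 with voom and -0.79 to 0.24 with single samples left out, and Myh8 was -0.30 with quality weights and -0.65 without day 7 replicates 3 and 6. Actc1 from day 14 to day 21 was -0.071 with the common sum and -0.030 to 0.49 with single samples left out. Without a filter Myl4 was not called at day 14 (adjusted p = 0.0776).

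The deviations of same-numbered samples of different groups had a mean correlation of 0.022 over 51 pairs (-0.52 to 0.57, 15 above 0.1). This does not settle whether such samples share a mouse or a batch. A replicate block by number called 1 of the 5 genes, Myh3, from day 7 to day 21 (-1.99), and changed no other count of the 5. Over all genes, that comparison had 484 called higher and 642 lower with the block, against 73 and 256 without it. For day 21 against uninjured muscle the counts were 390 and 405, against 255 and 247. A permutation within pairs was not run for the shares, since 5 pairs cannot give a p below 0.0625. Depth limits the uninjured values of Myh3 (17 to 59 reads), Myh8 (28 to 136) and Tnnt2 (51 to 105).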

Other observations

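Slow-fibre genes set day 7 replicate 6 apart from day 7 replicate 3, although both were low in the developmental isoforms. In replicate 6, Myh7, the slow myosin heavy chain, was at 16.3 FPKM, Myl2, the slow regulatory light chain, at 177 and Tnnc1 at 153, against 0.0173 to 0.634, 0.397 to 17.4 and 2.37 to 41.4 in the other day 7 samples. Tnni1 was at 15.2 in replicate 6 and 0.538 in replicate 3, and Tnnt1 at 102 and 3.97. Day 21 replicate 4 was also the highest of its group for Myh7 (3.16 FPKM), Myl2 (23.6) and Tnnc1 (35.9). These samples were singled out after their values were seen.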
